A study of Mus musculus with 6 samples.

Results

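The 36 genes described here make cholesterol, control how much of it is made, move and store it, export it, or make the fatty acids that share its control. They were selected on a named list that was proposed with the KO against WT results of these arrays already known, so their KO minus WT differences are a description and no test is read from them. Of the 36 listed genes, 33 had at least 1 probe set with a single gene symbol, out of 15792 genes with a value. Idi1, Acat2 and Nr1h2 were not matched under any symbol or alias and are not analysed here.

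The study measured total RNA of mouse testes on Affymetrix exon arrays, with 3 WT arrays and 3 arrays of mice lacking Ttll5 (also named Stamp), a member of the tubulin tyrosine ligase-like family. All mice were males of a background mixed from the strains C57BL/6, 129/SvEv and FVB/N, and the labels describe age- and sex-matched littermates without giving the age, the structure of the KO allele or any treatment. Each array is taken as 1 biological replicate, litters cannot be traced to arrays, and p-values measure only the spread between these 6 samples. Ttll5 itself lay between 11.14 and 11.16 (log2) in the WT arrays and between 9.49 and 9.58 in the KO arrays, a difference of -1.62 (SE 0.066, limma adjusted p = 4.3e-05), which checks the labels.

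Cholesterol is built from acetyl-CoA through mevalonate and isoprenoid units to squalene, which is closed into lanosterol and then trimmed, reduced and desaturated to cholesterol. When sterols are scarce, SCAP carries the SREBP transcription factors from the endoplasmic reticulum to the Golgi, where they are cleaved and released to switch on the synthesis enzymes, and INSIG proteins hold SCAP back when sterols are plentiful. When oxysterols accumulate, the nuclear receptors called LXR switch on exporters such as ABCA1 and ABCG1. In the testis cholesterol is the raw material of testosterone in Leydig cells, and germ cells hold large amounts of late sterol intermediates, among them the meiosis-activating sterols formed around CYP51 and TM7SF2.

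Most of the measured genes had a higher mean in the KO testes, by small amounts. KO means were above WT means for 25 of 33 members (75.8%) and for 48.9% of all genes. The median difference was 0.095 (log2, KO minus WT) over the members and -0.0026 over all genes. The larger positive differences lay in the later steps of the synthesis pathway, led by Sc4mol at 0.52 and Tm7sf2 at 0.44. The 3 measured genes of efflux had differences below 0. By the limma test with Benjamini-Hochberg adjustment 0 of 33 members passed an adjusted p of 0.05, a threshold that 0.0697% of all genes passed. At an unadjusted limma p under 0.05 there were 6 members, Lss, Tm7sf2, Sc4mol, Hsd17b7, Insig1 and Acly, against 6.05% of all genes. All of these 6 were higher in KO, where 2.6% of all genes were. In 7 members every KO array lay above every WT array, against 4.53% of all genes, and in 1 member every KO array lay below every WT array, against 6.67% of all genes. Since the list was proposed from this contrast, nothing is read from these shares. With 3 arrays a side, the smallest p that exact permutation allows is 0.1.

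**Figure D1:**
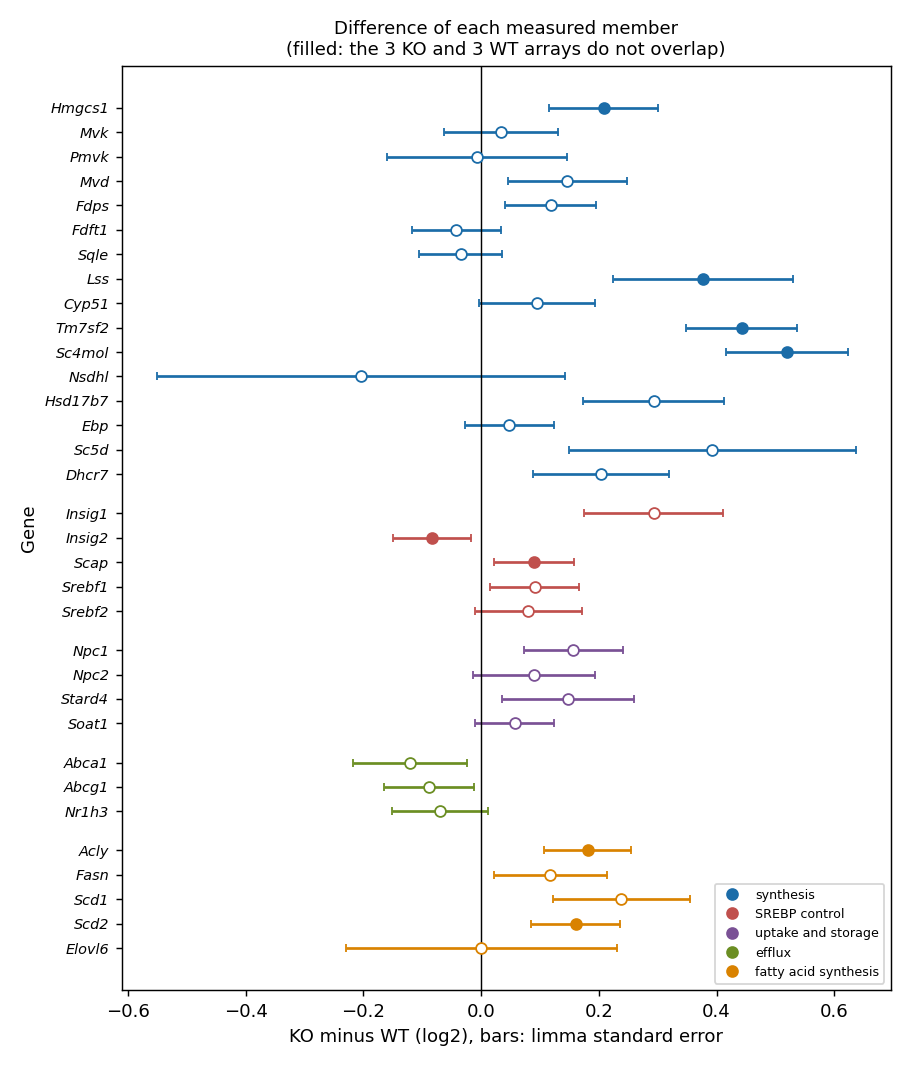
KO minus WT difference (log2, x axis) of each of the 33 measured genes, ordered by role (y axis, colours), with bars for limma's standard error; filled points mark genes whose 3 KO arrays do not overlap the 3 WT arrays. The points of Sc4mol (0.52) and Tm7sf2 (0.44) lie farthest to the right, the 3 efflux genes lie left of 0, and Nsdhl and Sc5d have the widest bars among the synthesis enzymes.

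The synthesis enzymes numbered 16 of the 18 listed. KO means were higher for 12 of them and lower for 4, with a median difference of 0.13. Split at squalene, the 6 enzymes up to squalene had a median difference of 0.076, with 4 higher, and the 10 enzymes from squalene to cholesterol had a median of 0.25, with 8 higher. Unadjusted p-values under 0.05 were found in 0 of the 6 early enzymes and in 4 of the 10 late ones, all higher in KO, beside 6.05% of all genes in either direction and 2.6% higher in KO. Among the early enzymes Hmgcs1 had an unadjusted limma p of 0.0535, just outside this threshold. The split at squalene is not one of the roles of the list and was drawn with the KO against WT results known. Whether the stages differ from each other was not tested.

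Sc4mol (current symbol Msmo1, chromosome 8) is the C4-methyl sterol oxidase, which starts the removal of the methyl groups at C4 of the sterol ring. The WT arrays read 9.01, 9.21 and 9.42, and the KO arrays read 9.71, 9.74 and 9.76. The KO arrays lay close together above all WT arrays, which were spread more widely. The means were 9.21 ± 0.202 in WT and 9.73 ± 0.0275 in KO (SD, n = 3 each), a difference of 0.52 (SE 0.104, 95% interval 0.28 to 0.76), or 1.43-fold. Its limma p was 0.000993 before adjustment and 0.373 after adjustment over all genes.

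Tm7sf2 (chromosome 19) is a sterol C14-reductase, which acts on the product of CYP51. WT levels of 6.72, 6.86 and 6.60 faced KO levels of 7.21, 7.04 and 7.26, again without overlap. The difference was 0.44 (SE 0.0938, 95% interval 0.23 to 0.66), or 1.36-fold, with a limma adjusted p of 0.415. Lbr, which encodes the other sterol C14-reductase and also tethers chromatin to the nuclear envelope, differed by -0.13 (SE 0.11) with overlapping arrays.

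Lss (chromosome 10), the cyclase that closes squalene epoxide into lanosterol, had levels of 6.43, 6.60 and 6.39 in WT and 7.23, 6.70 and 6.63 in KO. The groups did not overlap, but KO array 1 stood well above the other KO arrays, and the nearest KO and WT arrays were close. The difference was 0.38 (SE 0.154, limma adjusted p = 0.811), and 0.19 without KO array 1. Hmgcs1 (chromosome 13), the cytosolic synthase that makes HMG-CoA for the mevalonate pathway, was the earliest enzyme without overlap. WT arrays read 9.30, 9.42 and 9.14, and KO arrays 9.59, 9.47 and 9.43. The highest WT array and the lowest KO array of Hmgcs1 were nearly level. Its difference was 0.21 (SE 0.0924, limma adjusted p = 0.831).

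**Figure D2:**
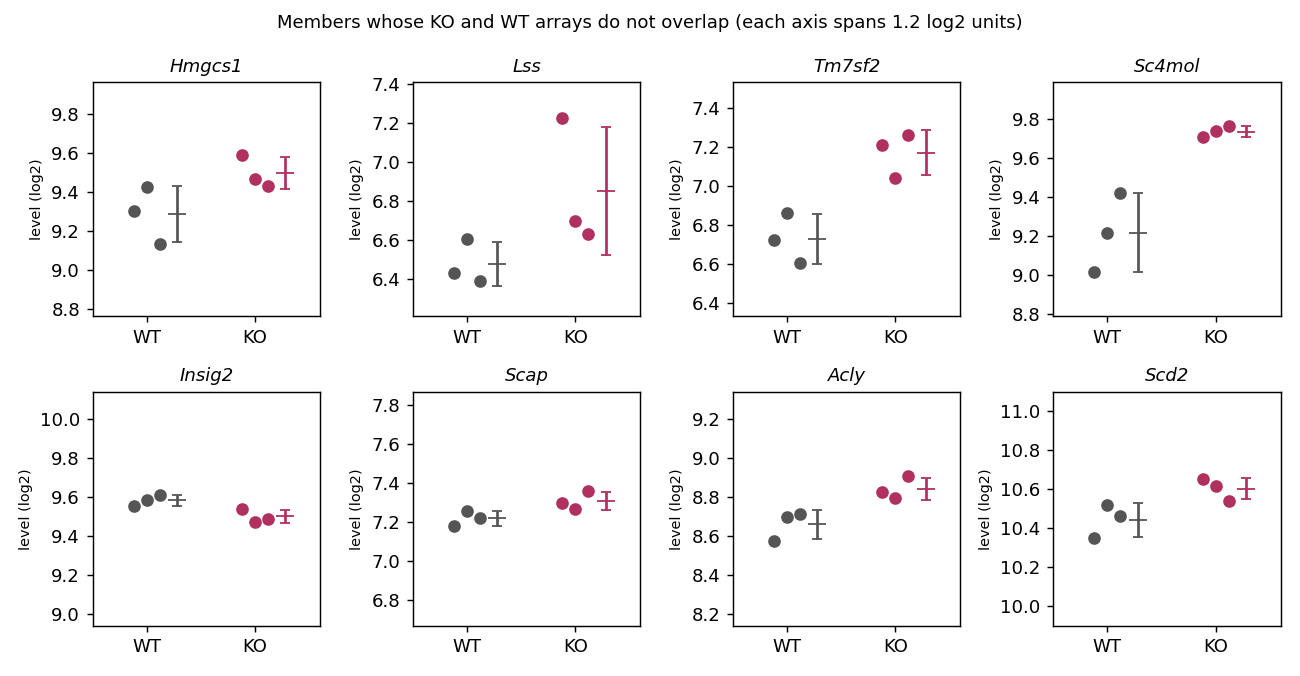
Level of each array (log2, y axis; each panel spans 1.2 units) by genotype (x axis) for the 8 genes whose KO and WT arrays do not overlap, with lines and bars for the mean and SD of 3 arrays. Sc4mol and Tm7sf2 have the clearest gaps, while in Hmgcs1, Scap and Insig2 the nearest arrays of the groups almost touch.

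The promoters of the members were searched for the letters of known control sequences. SREBPs bind sterol regulatory elements and usually act beside the factor NF-Y, which binds the CCAAT box. RefSeq promoter windows of the build GRCm38.p6, with 250 bases before and 50 after the start, were matched by symbol for 25 of the 33 measured members, 34 windows in all. Fdps, Fdft1, Sqle, Npc1, Stard4, Abcg1, Scd1 and Scd2 have no entry. In the sequences below, CCAAT (or its reverse complement, ATTGG) and the sterol regulatory element are in capitals. Each sequence runs up to the last base before the span of any RefSeq gene. Of the 4 synthesis enzymes without overlap, 3 are shown here, 5′ to 3′ on the strand of the gene. They are Hmgcs1 at chr13:119690101-119690350 (plus strand), Lss at chr10:76531355-76531564 (plus strand) and Msmo1, the current name of Sc4mol, at chr8:64733579-64733828 (minus strand).
Hmgcs1: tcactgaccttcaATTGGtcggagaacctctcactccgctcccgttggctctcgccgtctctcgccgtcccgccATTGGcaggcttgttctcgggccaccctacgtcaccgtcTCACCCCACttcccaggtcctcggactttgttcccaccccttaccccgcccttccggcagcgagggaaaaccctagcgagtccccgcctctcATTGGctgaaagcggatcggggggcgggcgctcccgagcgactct
Lss: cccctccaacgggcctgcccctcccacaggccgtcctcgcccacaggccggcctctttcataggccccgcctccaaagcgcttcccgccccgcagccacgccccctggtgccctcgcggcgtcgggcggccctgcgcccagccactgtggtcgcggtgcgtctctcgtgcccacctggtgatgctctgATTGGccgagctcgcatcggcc
Msmo1: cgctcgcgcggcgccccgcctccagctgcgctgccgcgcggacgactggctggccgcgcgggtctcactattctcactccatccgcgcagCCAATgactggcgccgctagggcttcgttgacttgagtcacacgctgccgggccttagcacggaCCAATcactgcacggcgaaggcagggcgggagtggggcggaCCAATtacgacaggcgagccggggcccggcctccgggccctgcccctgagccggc
The stretch of Hmgcs1 holds 3 CCAAT matches and 1 match to TCACNCCAC, the letters searched for the sterol regulatory element, whose first base lies at -137, where -1 is the base before the start. The stretch of Msmo1 holds 3 CCAAT matches, at -160, -96 and -55, and that of Lss holds 1, at -62. In the window of Tm7sf2, which runs into the neighbouring gene, CCAAT was matched at -47.

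Across whole windows, read on both strands, CCAAT was found in 21 of 25 members, among them 13 of 13 synthesis enzymes, and in 41.1% of the genes in the promoter table. A gene counted as matched if any of its windows matched, so genes with more windows had more chances. The 25 members had 34 windows, and the 27025 genes of the promoter table had 32851. Dhcr7 was matched for CCAAT only in window 3 of its 3. The GC box GGGCGG, bound by the factor SP1, was found in 21 of 25 members, 12 of 13 synthesis enzymes and 38.2% of all genes in the table. Among protein-coding genes the shares were 42.3% for CCAAT and 49.2% for GGGCGG. The E-box CACGTG was found in 6 of 25 members and 8.09% of all genes. TCACNCCAC was found in 1 of 25 members, Hmgcs1, and 1.44% of all genes. TGACGTCA, the cAMP response element, was matched in 0 of 25 members and 2.03% of all genes, and the DR4 element bound by LXR, searched as AGGTCA repeated with 4 free bases between, in 0 of 25 members and 0.0148% of all genes. No match of one motif overlapped a match of another in these windows. A match is a description of the letters in a window and not a binding site, and a missing match says only that these exact letters are not in it.

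Among the other synthesis enzymes, Hsd17b7, the C3-ketosteroid reductase of C4 demethylation, differed by 0.29 (SE 0.12, limma adjusted p = 0.811) with overlapping arrays. Dhcr7, the reductase that turns 7-dehydrocholesterol into cholesterol, differed by 0.20, Mvd, the mevalonate diphosphate decarboxylase, by 0.15, and Fdps, the farnesyl diphosphate synthase, by 0.12. Cyp51, the lanosterol demethylase, differed by 0.095, Ebp, the sterol isomerase, by 0.048, and Mvk, the mevalonate kinase, by 0.034. The enzymes with lower KO means were Pmvk, the phosphomevalonate kinase, at -0.0069, Sqle, the squalene epoxidase, at -0.035, Fdft1, the squalene synthase, at -0.042, and Nsdhl at -0.20. The enzymes that make and consume squalene, Fdft1 and Sqle, had differences near 0 with the mean of their probe sets. With each array's median level over the probe sets, Fdft1 and Sqle were at -0.22 and -0.13. The medians of their single probe set differences were -0.043 and -0.031. Single arrays carried some of these values: Dhcr7 was at 0.068 without WT array 1, Cyp51 at 0.0086 without KO array 1 and Mvd at 0.042 without WT array 3.

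Nsdhl and Sc5d varied most between arrays of one group. Their per-array values are given for that spread, a choice made after the values were seen. Nsdhl, an X-linked enzyme of C4 demethylation, had levels of 9.76, 8.80 and 9.50 in WT and 8.71, 9.93 and 8.81 in KO. Its within-group SD was larger than that of 99.6% of all genes, and WT array 2 and KO arrays 1 and 3 formed the low set. Its 3 probe sets all had KO array 2 high and KO array 1 low. Sc5d, the desaturase that acts just before Dhcr7, had levels of 7.69, 8.24 and 8.03 in WT and 8.79, 8.54 and 7.81 in KO, a difference of 0.39 (SE 0.243, limma adjusted p = 0.884). KO array 3 lay within the WT range, and the spread of Sc5d exceeded that of 98.6% of all genes.

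**Figure D3:**
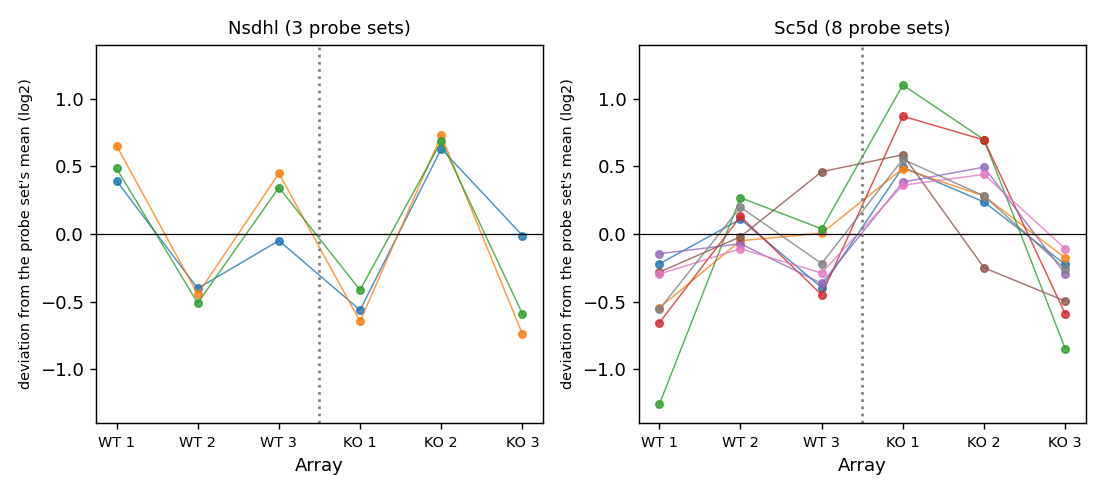
Deviation of every probe set of Nsdhl (3 probe sets) and Sc5d (8 probe sets) from its own mean over the 6 arrays (log2, y axis), by array (x axis), with a line per probe set to tie its points together; the order of arrays within a group has no meaning. All probe sets of Nsdhl are high in WT 1 and KO 2 and low in WT 2 and KO 1, and most of those of Sc5d are high in KO 1 and KO 2.

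Across the 6 arrays the synthesis enzymes moved together only in part. Pearson's r of each enzyme with the mean of the other 15 synthesis enzymes is a description over 6 arrays that share their groups. It was 0.88 for Sc5d, 0.87 for Hsd17b7, 0.85 for Lss and 0.79 for Hmgcs1, the enzymes most like the rest. With the group means removed it was 0.97 for Sc5d, 0.71 for Hsd17b7, 0.69 for Lss and 0.52 for Hmgcs1. Pmvk (0.70), Mvk (0.64), Cyp51 (0.62) and Fdps (0.54) were then also above Hmgcs1. Within a group, the mean deviation of the enzymes was lower in arrays with a higher lower quartile, as given below. For the enzymes with the largest differences r was 0.66 for Sc4mol and 0.64 for Tm7sf2, and 0.048 and -0.062 with the group means removed. Beyond the group means, Sc4mol and Tm7sf2 showed no such correlation over these arrays. Nsdhl ran opposite to the rest, with an r of -0.54 over the 6 arrays.

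The mean deviation of the 16 synthesis enzymes from each gene's own mean was -0.14, -0.015 and -0.083 (log2) in WT arrays 1, 2 and 3 and 0.16, 0.10 and -0.020 in KO arrays 1, 2 and 3. KO array 3 thus lay below WT array 2, and the groups overlapped for the enzymes as a set. Over all 33 members the values were -0.13, 0.0083 and -0.061 in WT and 0.12, 0.084 and -0.023 in KO, with the same overlap. The median difference of the synthesis enzymes was 0.073 without WT array 1. The median over all members was 0.17 without WT array 2 and 0.15 without KO array 3. The number of members without overlap, 8 with all arrays, was 16 without WT array 2 and 18 without KO array 3, where 19.5% and 20.9% of all genes did not overlap, against 11.2% with all arrays. Without KO array 1 it was 9, where 24.3% of all genes did not overlap.

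**Figure D4:**
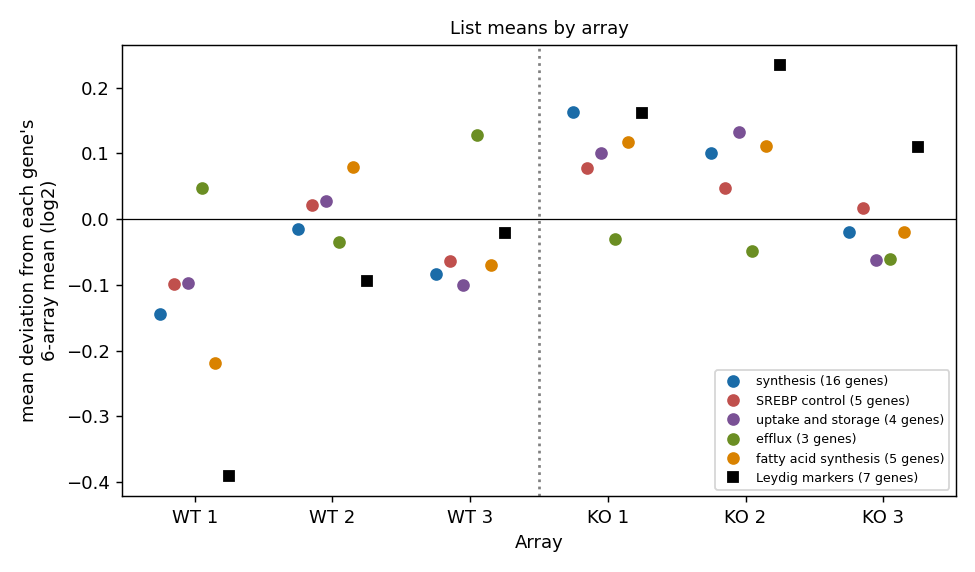
Mean deviation of each group of genes from each gene's 6-array mean (log2, y axis) in each array (x axis), for the 5 roles and for Leydig cell markers (squares); the order of arrays within a group has no meaning. Synthesis enzymes lie at 0.16 and 0.10 in KO 1 and KO 2 but at -0.020 in KO 3, just below WT 2 (-0.015).

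Single probe sets show whether a gene's difference was shared along its transcript. Each probe set covers part of an exon, and the 33 members had 446 of them. KO means were higher in 322 and lower in 124. Of all genes, counted by gene and not by probe set, 48.9% had a higher KO mean. Every KO array lay above every WT array in 60 of the 446, where 4.97% of all 188590 probe sets did, and below in 12, where 5.27% did. Of the 446, 0 passed a limma adjusted p of 0.05, which 0.0382% of all probe sets passed, and 44 had an unadjusted limma p under 0.05, as 5.36% of all probe sets had. These shares again rest on the contrast that chose the genes, and probe sets of one gene are not replicates.

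For Sc4mol all 8 probe sets were higher in KO, by 0.18 to 0.92, and 7 of them did not overlap. For Lss all 23 probe sets were higher in KO, by 0.12 to 0.90, and 9 did not overlap. For Tm7sf2 12 of 13 probe sets were higher, with 5 above all WT arrays. Cyp51 had 12 of 12 probe sets with a higher KO mean, by 0.0081 to 0.25. For Fdft1 and Sqle the probe sets went both ways, with 2 of 6 and 6 of 14 higher. Fdps and Srebf2 each rested on 1 probe set, so their values have no such check.

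**Figure D5:**
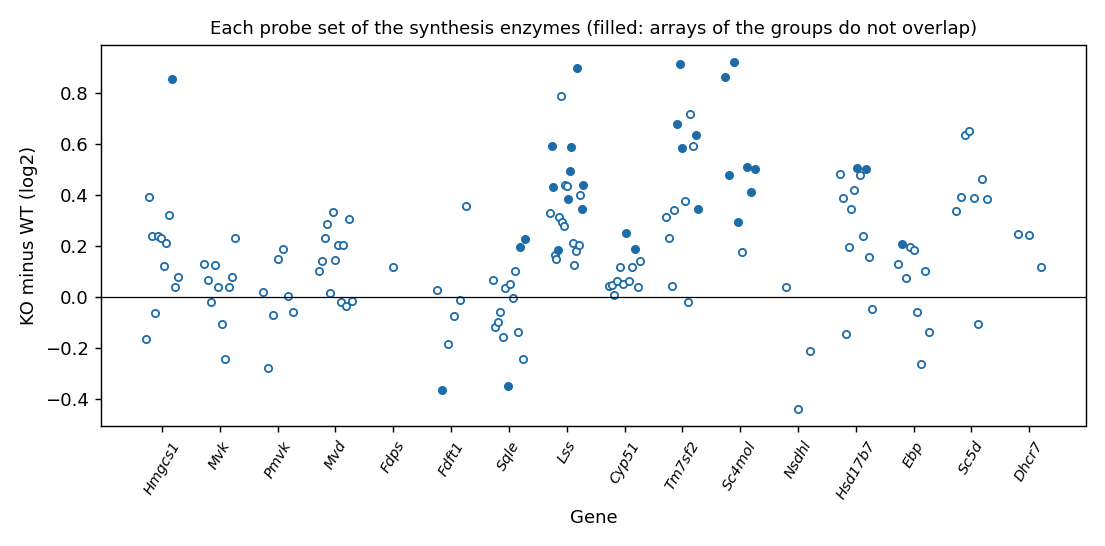
KO minus WT difference (log2, y axis) of every probe set of the 16 synthesis enzymes (x axis); filled points mark probe sets whose KO and WT arrays do not overlap. All probe sets of Lss, Sc4mol and Cyp51 lie above 0, while those of Fdft1 and Sqle lie on both sides.

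The SREBP control genes had small differences of both signs. KO means were higher for 4 of 5, with a median of 0.090. Insig1 (chromosome 5), itself a target of SREBP and a retention factor for SCAP, had levels of 7.63, 7.84 and 7.64 in WT and 8.23, 7.97 and 7.79 in KO. KO array 3 of Insig1 lay below WT array 2. Its difference was 0.29 (SE 0.118, limma adjusted p = 0.81), the largest of this role.

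Insig2 (chromosome 1), the INSIG form that is not driven by SREBP in most tissues, was the only one of the 33 members with every KO array below every WT array. Its levels were 9.56, 9.59 and 9.61 in WT and 9.54, 9.47 and 9.49 in KO, a difference of -0.083 (SE 0.0656, limma adjusted p = 0.923). Scap (chromosome 9), the escort of SREBP, had levels of 7.18, 7.26 and 7.22 in WT and 7.30, 7.27 and 7.36 in KO, a difference of 0.090 (SE 0.0676). The gaps between the groups in Insig2 and Scap were small, and both 95% intervals included 0. Srebf1, which encodes the SREBP forms weighted to fatty acid genes, had levels of 6.10, 6.14 and 6.24 in WT and 6.17, 6.31 and 6.28 in KO, a difference of 0.091. Srebf2, which encodes the SREBP form weighted to sterol genes, differed by 0.080.

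All 4 genes of uptake, transport and storage had higher KO means, by 0.057 to 0.16, and all 4 had overlapping arrays. Npc1, a membrane protein that moves cholesterol out of lysosomes, had levels of 5.86, 5.93 and 5.82 in WT and 6.01, 6.16 and 5.92 in KO. Only its lowest KO array fell within the WT range, and the difference was 0.16 (SE 0.0838, limma adjusted p = 0.872). Stard4, a soluble sterol carrier and a target of SREBP, had levels of 6.49, 6.72 and 6.72 in WT and 6.90, 6.90 and 6.57 in KO, a difference of 0.15 (SE 0.112). All 8 probe sets of Stard4 had a higher KO mean. Npc2, the soluble lysosomal partner of Npc1, differed by 0.090, and Soat1, which esterifies cholesterol for storage, by 0.057. Npc2 lies on chromosome 12, as do Ttll5 and, of the wider list described below, Fntb, Cyp46a1 and Sec23a. The part of the shared chromosome in their differences was not tested.

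The 3 measured efflux genes had lower KO means, by amounts within the spread of the arrays. Abca1 (chromosome 4), which exports cholesterol to apolipoproteins, had levels of 8.18, 8.13 and 8.32 in WT and 8.18, 8.17 and 7.91 in KO, a difference of -0.12 (SE 0.0971, limma adjusted p = 0.926). Only KO array 3 of Abca1 lay outside the WT range, and 26 of its 35 probe sets had a lower KO mean. Abcg1 (chromosome 17), which exports cholesterol to high density lipoprotein, had levels of 5.14, 4.98 and 5.05 in WT and 4.94, 4.92 and 5.05 in KO, a difference of -0.089 (SE 0.0765). Nr1h3, which encodes LXR alpha, differed by -0.070. The 95% interval of each of these differences included 0. With each array's median level over probe sets in place of the mean, Abcg1 was at -0.25 and Nr1h3 at -0.21. The medians of their single probe set differences were -0.11 and -0.014.

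The fatty acid genes under SREBP had 4 members with KO means higher by 0.12 to 0.24, while Elovl6, an elongase of saturated chains, differed by 0.00037 with a wide spread. Acly (chromosome 11), which makes cytosolic acetyl-CoA for both sterols and fatty acids, had levels of 8.57, 8.69 and 8.71 in WT and 8.82, 8.79 and 8.90 in KO. The groups did not overlap, and the difference was 0.18 (SE 0.0738, limma adjusted p = 0.811). Of its 27 probe sets 25 had a higher KO mean. Every KO array lay above every WT array in 10 of them and below in 1, beside 4.97% and 5.27% of all probe sets.

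Scd2 (chromosome 19), a stearoyl-CoA desaturase, had levels of 10.35, 10.52 and 10.46 in WT and 10.65, 10.62 and 10.54 in KO, a difference of 0.16 (SE 0.0755) without overlap. Scd1, its close relative, had levels of 7.01, 7.22 and 7.31 in WT and 7.46, 7.58 and 7.21 in KO, a difference of 0.24 (SE 0.117) with overlap through KO array 3. The sequences of Scd1 and Scd2 are alike, and how far their probes tell them apart was not tested. Fasn, the fatty acid synthase, differed by 0.12, and by 0.020 without KO array 1.

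A wider list of 60 genes around the pathway, listed by function, had 48 measured genes. KO means were higher for 27 and lower for 21, around a median of 0.0089. The limma adjusted threshold was passed by 0, while 5 had an unadjusted p under 0.05, all higher in KO, beside 6.05% of all genes. In 5 of the 48 every KO array lay above every WT array, beside 4.53% of all genes, and in 3 every KO array lay below, close to the 6.67% of all genes. Within the fatty acid genes of this list the largest differences were those of the desaturases that put further double bonds into polyunsaturated chains, which are targets of SREBP. Fads1 (chromosome 19) had levels of 9.40, 9.53 and 9.25 in WT and 9.97, 9.78 and 9.87 in KO, a difference of 0.48 (SE 0.0938, limma adjusted p = 0.364). Fads2, its neighbour on the chromosome, had levels of 10.42, 10.57 and 10.56 in WT and 10.87, 10.83 and 10.77 in KO, a difference of 0.31 (SE 0.0745, limma adjusted p = 0.485). In both, every KO array lay above every WT array. Acacb, a carboxylase that makes malonyl-CoA, followed among the fatty acid genes at 0.15, and 7 of the 9 measured had higher KO means.

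The side branches of the pathway, which feed protein prenylation and ubiquinone, had differences of both signs. Of 9 measured genes 3 had higher and 6 had lower KO means, with a median of -0.0090. Fntb, a subunit of protein farnesyltransferase, differed by 0.48 with a wide spread (SE 0.349), while Fnta, its partner subunit, differed by -0.13 with every KO array below every WT array. Among 11 genes of SREBP processing and of degradation of the pathway's reductase, 5 were higher and 6 lower, from -0.14 for the protease Mbtps2 and the coat protein Sec23a to 0.15 for the coat protein Sec24d. Among 12 further transport and storage genes 6 were higher and 6 lower, with Stard5 at 0.21, Osbpl1a at -0.14 and Abca5 at -0.093.

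Of 7 measured genes of oxysterols and steroid entry 6 had higher KO means, with a median of 0.048, and Star and Cyp11a1 had the largest differences. Star, which delivers cholesterol to the inner mitochondrial membrane, had levels of 9.10, 9.67 and 9.42 in WT and 9.97, 9.92 and 9.94 in KO, a difference of 0.55 (SE 0.132, limma adjusted p = 0.485). Cyp11a1, the side chain cleavage enzyme, differed by 0.47 (SE 0.134, limma adjusted p = 0.634). In both, every KO array lay above every WT array. Fdx1, the electron donor of Cyp11a1, differed by 0.048 with overlapping arrays. Cyp46a1, a cholesterol 24-hydroxylase, differed by -0.25 with overlapping arrays.

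Star and Cyp11a1 are also markers of Leydig cells, and the other measured Leydig markers also had higher KO means. Of 8 listed Leydig markers 7 were measured, all 7 had higher KO means, and in 4 of them (Cyp17a1, Cyp11a1, Star and Hsd17b3) every KO array lay above every WT array, with a median difference of 0.35 over the 7. The share of all genes with every KO array above was 4.53%. Their summed level (log2 of the sum of linear values) was 12.70 to 12.97 in WT and 13.16 to 13.23 in KO, and none lay below the lower quartile of the arrays, 4.65. WT array 1 had the lowest mean deviation both of the Leydig markers, at -0.39, and of the synthesis enzymes. That array was also lowest for the peritubular markers, at -0.12, and for the wider list, at -0.069. The highest array was KO 1 for the synthesis enzymes but KO 2 for the Leydig markers. KO array 3 was at -0.020 for the synthesis enzymes and at 0.11 for the Leydig markers. In bulk testis, fewer or more cells of a type and less or more RNA per cell cannot be told apart. The part of Leydig cell content in the differences of the members was not tested.

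The markers of other cells had medians nearer to 0, but single ones differed as much. The median difference was 0.039 over 7 Sertoli markers (summed level 10.46 to 10.64 in WT and 10.55 to 10.67 in KO) and 0.056 over 5 peritubular markers (10.76 to 11.16 in WT and 10.84 to 11.06 in KO). It was 0.16 over 6 macrophage markers, whose summed level was 7.98 to 8.11 in WT and 8.15 to 8.28 in KO. The mean deviation of the macrophage markers did not overlap either, at -0.13 to -0.039 in WT and 0.032 to 0.14 in KO. That of the Sertoli markers did not overlap, at -0.10 to -0.0015 in WT and 0.011 to 0.096 in KO. The spermatid markers were lower in KO without overlap, at -0.0055 to 0.061 in WT and -0.064 to -0.0064 in KO. In the peritubular, spermatogonial and spermatocyte markers the mean deviation overlapped. The part of macrophages and Sertoli cells in the members' differences was not tested. Every KO array lay above every WT array in 2 of the 6 macrophage markers, Csf1r and Cd14. The same was found in 1 of the 7 Sertoli markers, Trf, and in 4.53% of all genes. Cd14 differed by 0.47 (limma adjusted p = 0.23) and Trf by 0.35 (limma adjusted p = 0.634). Among germ cells the median was -0.095 over 4 spermatogonial markers (8.60 to 8.94 in WT and 8.49 to 8.82 in KO), -0.13 over 5 spermatocyte markers (13.44 to 13.48 in WT and 13.34 to 13.64 in KO) and -0.089 over 8 spermatid markers (15.59 to 15.65 in WT and 15.53 to 15.60 in KO). Every KO array lay below every WT array in 3 of the 8 spermatid markers, Tnp1 at -0.19, Tnp2 and Akap4. The same was found in 1 of the 5 spermatocyte markers, Sycp3, and in 6.67% of all genes. The WT means of Amh (Sertoli), Des (peritubular), Cd14 and Cd163 (macrophage) lay below the lower quartile. The spermatid and spermatocyte markers were bright in every array, as the labelled tissue would have, and their part in the members' differences was not tested either.

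Array medians over all probe sets were 6.72 to 6.77 (log2) and lower quartiles 4.59 to 4.67. In WT arrays 2, 3 and 1 lower quartiles of 4.595, 4.640 and 4.656 went with synthesis enzyme mean deviations of -0.015, -0.083 and -0.14. In KO arrays 1, 2 and 3 lower quartiles of 4.598, 4.666 and 4.670 went with 0.16, 0.10 and -0.020. Within each genotype the enzymes were thus lower where the lower quartile was higher. Whether this relation holds beyond these arrays was not tested. The lower quartile was highest in WT 1, KO 2 and KO 3. Within these 3 arrays the median KO minus WT difference was 0.14 for the synthesis enzymes and 0.15 for all members, and within the other 3 arrays it was 0.18 and 0.14, against -0.0033 and -0.022 for all genes. Each of these sets holds a single array of one genotype.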

How the data were processed

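The authors deposited 1 table of log2 values for 188590 probe sets on 6 arrays. RMA and Partek 6.5 are named per the submitters' processing notes, without roles, and the sources used here give neither the background method nor the annotation build. Because RMA makes array distributions alike, a shift common to most genes cannot be seen. Values were used as deposited. A gene's value was the mean over its probe sets with 1 platform symbol (179163 of them), which gave 15792 genes; 1322 probe sets with several symbols and 8105 with none entered no gene. RefSeq (GRCm38.p6) supplied current names, chromosomes and promoters only. The number of arrays, 3 per group, limits the precision.

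KO and WT were compared with limma 3.58.1 (R 4.3.3; lmFit and eBayes, two-sided, no covariates) over all genes and, separately, all probe sets, with Benjamini-Hochberg adjustment and a threshold of 0.05. The scripts were tested on simulated data. Members, gene lists and motifs were chosen with earlier results of these data known. The naming rule gave per-array values to members without overlap and to the 2 largest differences of each role, and named up to 3 genes of each wider sublist. Same-numbered arrays did not deviate together (correlations -0.17, 0.072 and 0.18), so the numbers were not taken as pairs. The alternatives were the median in place of the mean of probe sets, filters on dim probe sets and on genes under the 40th percentile, another normalization or moderation, weights for arrays, a replicate block, a term for the 3 arrays with a higher lower quartile, leaving out each array, and a shorter promoter window.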

Additional observations from a re-analysis of the deposited data

How the results depend on the processing

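In each of the 15 alternatives of the gene test 0 measured members passed the limma threshold, and in each of the 13 run on probe sets 0 of their probe sets did. The smallest adjusted p of a member ran from 0.158 (trended and robust moderation) to 0.598 (without KO array 1). Leaving out each array in turn, the median difference of the synthesis enzymes was 0.073 to 0.16, that of all members 0.070 to 0.17, and the number of members without overlap 9 to 18, where 18.4% to 24.3% of all genes did not overlap. With the other settings these were 0.12 to 0.15, 0.084 to 0.12 and 7 to 11, where 10.9% to 13.8% of all genes did not overlap. Settings that leave the gene values as they are give no separate count. The replicate block left the median of the synthesis enzymes at 0.13 and that of all members at 0.095, with 0 members and 9 of all genes called, against 11 without it. Sc4mol ranged from 0.42 to 0.62 and Tm7sf2 from 0.38 to 0.51. Differences within about 0.05 of 0 changed sign under some alternatives (Mvk, Pmvk, Fdft1, Sqle, Ebp and Elovl6), as did Nsdhl and Npc2. With each array's median level over probe sets as the gene value, Fdft1 was at -0.22, Sqle at -0.13, Ebp at 0.19 and Scap at 0.26. By the same summary Npc1 was at 0.27, Abcg1 at -0.25 and Nr1h3 at -0.21. Some other members were nearer to 0 by this summary than with the mean of probe sets. Scd1 was at 0.096 against 0.24 and Hsd17b7 at 0.14 against 0.29. Hmgcs1 was at 0.13 against 0.21 and Srebf1 at 0.034 against 0.091. The median of the single probe set differences was -0.043 for Fdft1, -0.031 for Sqle, 0.10 for Ebp and 0.11 for Scap. That median was 0.19 for Npc1, -0.11 for Abcg1 and -0.014 for Nr1h3. Without dim probe sets Fdft1 was at -0.12. The filter on dim genes left out Abcg1 and Elovl6. With the 250 bases before the start alone, CCAAT and GGGCGG were each found in 20 of 25 members, and the other motif counts did not move.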
